A study of Mus musculus with 21 samples.

Results

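Genes were sought whose difference between Aire-reporter positive cells and other dendritic cells (DCs) depends on the tissue, lymph node or bone marrow, in mice with a working Aire allele. The comparison used the 12 RNA-sequencing libraries whose titles do not carry AireKO, of 21 libraries in all, in 4 groups of 3. They were lymph node AGF+ DCs, lymph node AGF- DCs, bone marrow AGF+ DCs and bone marrow total DCs, and every group came from AGF-KI/+ mice, so the knock-in reporter allele is common to all of them. The labels give male C57BL/6 mice of 6 weeks. Lymph node cells of both kinds passed a CD45+CD11c+MHCII+ gate. In bone marrow the AGF+ cells were taken from a B220-CD24+ gate with no or low CD11b, and the cells set against them from a B220-CD11c+MHCII+ gate. The titles call this second population total DC, while the design text calls it AGF-. It is named total DC here. Because the bone marrow populations passed different gates, the reporter and the gate cannot be told apart there, and for the interaction neither can be told apart from the tissue. In lymph node, too, fewer cells of a type and less RNA per cell cannot be told apart in such bulk samples.

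Aire, the autoimmune regulator, is a nuclear protein known for switching on tissue-restricted genes in thymic epithelium, where they tolerise T cells. Outside the thymus it is made by rare antigen-presenting cells of lymphoid organs, which the reporter marks. DCs arise from bone marrow progenitors that divide, commit to conventional or plasmacytoid fates and then seed lymph nodes. Plasmacytoid DCs share regulators such as TCF4 and receptor-rearranging enzymes with lymphocytes.

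For each gene the lymph node difference is the log2 fold change of AGF+ over AGF- cells, and the bone marrow difference is that of AGF+ cells over total DCs. The interaction, called the double difference below, is the lymph node difference minus the bone marrow difference. A positive double difference therefore means that AGF+ cells stood relatively higher in lymph node than in bone marrow. Levels are in CPM, counts scaled to library size. Errors are standard errors (SE) of fitted differences, worked back from the quasi-likelihood test statistic, unless a standard deviation (SD) is named. That fit held 12 libraries, 3 per group, with spread estimates partly shared across genes. The 95% intervals use these SE. Adjusted p-values are from edgeR's quasi-likelihood test with Benjamini-Hochberg adjustment over all genes tested, with a threshold of 0.05. A fold given as at least, or with a counting interval, has a group with 3 counts or fewer over its 3 libraries. These bounds and intervals account for counting error alone.

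The 12 libraries held 4263663 to 6055097 counts. A count of 0 in a library allows up to 0.447 to 0.671 CPM. No 2 replicates of a group were as close as counting noise alone, with a chi-square per degree of freedom of 4.69 to 15.5. The 4 libraries numbered 2, 1 in each group, go against the label male. They had 2028 to 3838 CPM of Xist, the RNA of the inactive X chromosome, against 0 to 31.2 CPM in the other 8, and 0 to 0.768 CPM over 4 Y-linked genes against 375 to 568 CPM. The split is balanced over the groups, and counts without these 4 libraries are given beside the results. Antigen-presenting identity was checked in all groups. The 16 tested MHC class II presentation genes summed to 9720 to 11300 CPM in lymph node AGF+ cells and 13600 to 13900 CPM in AGF- cells. In bone marrow they summed to 8920 to 10600 CPM in AGF+ cells and 7890 to 9840 CPM in total DCs.

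The AGF+ difference depended on the tissue for 3345 of 16623 genes tested (20.1%). Of these, 1392 had a higher difference in lymph node (8.37% of genes tested) and 1953 a lower one (11.7%), and 2438 double differences were at least 2-fold. Within lymph node 1451 genes were higher in AGF+ cells (8.73%) and 1904 lower (11.5%). Within bone marrow 3431 were higher (20.6%) and 3275 lower (19.7%). Sorting the interaction genes by what passed the test in each tissue left 500 with opposite directions (3.01%). Another 508 passed in lymph node alone (3.06%), 1911 in bone marrow alone (11.5%) and 127 in neither tissue taken singly (0.764%). In 299 both tissues passed, in the same direction but by unequal amounts (1.8%). Not passing in a tissue is not evidence of no change there. Without the libraries numbered 2 the interaction count was 1599 and the opposite count 233, of which 209 were among the 500. The other classes then held 287 genes in lymph node alone, 942 in bone marrow alone and 74 in the same direction. With the replicate number as a block within each tissue the interaction count was 4856, of which 3326 were among the 3345. The opposite count was then 804 and the same-direction count 679.

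**Figure D1:**
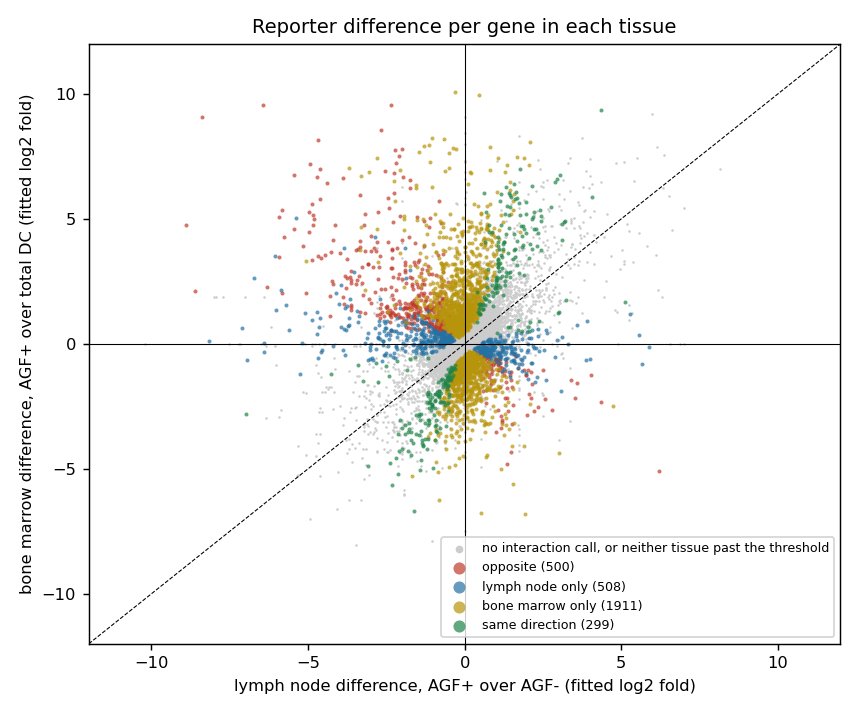
Each point is a gene, with its lymph node difference (AGF+ over AGF-, log2) on the horizontal axis and its bone marrow difference (AGF+ over total DC, log2) on the vertical axis. Red points are the 500 opposite genes, which lie in the upper left (389) and lower right (111) quadrants; the dashed line marks equal differences, and fitted values of genes with a group near 0 counts are not bounds.

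The opposite genes were unequally split by direction. In 389 the AGF+ cells were lower in lymph node and higher in bone marrow, and in 111 they were higher in lymph node and lower in bone marrow. The 389 had a median lymph node difference of -1.61 and a median bone marrow difference of 1.52, and the 111 had medians of 1.06 and -1.07. These medians describe genes chosen by the same tests. Over all genes tested the medians were -0.01 in lymph node and 0.02 in bone marrow. The 12 opposite genes described next are the 6 per direction with the largest double differences among those that met minimum levels and had no overlap between the cell populations in either tissue. Their lack of overlap was thus a condition of being named. The interaction call of all 12 held under every alternative tried. At an adjusted p under 0.01 Kcnt1, Hist2h4 and Cubn no longer passed in bone marrow (0.0239, 0.0142 and 0.0191) and Cgnl1 no longer passed in lymph node (0.0183).

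The 6 that were lower in lymph node AGF+ cells and higher in bone marrow AGF+ cells are genes of lymphocytes and cytotoxic cells. Dntt encodes terminal deoxynucleotidyl transferase, which adds bases at V(D)J junctions, and lies on chromosome 19 at 41029275 to 41059525 of GRCm38, plus strand. It had 0, 0 and 0 CPM in lymph node AGF+ cells and 10.5, 3.24 and 10.2 CPM in AGF- cells. Bone marrow AGF+ cells had 55.7, 95.5 and 104 CPM, and total DCs 0.211, 0.202 and 0 CPM. Dntt was thus at least 46.6-fold lower in lymph node AGF+ cells and 645-fold higher in bone marrow AGF+ cells (counting interval 178 to 5330), with an interaction adjusted p of 8.42e-07. The order of the groups was reversed between the tissues.

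Gzma and Gzmb, the granzymes that cytotoxic cells release to kill targets, followed the same pattern at unequal size. Gzma (chromosome 13, 113093825 to 113100981, minus strand) had 0, 0.149 and 0 CPM in lymph node AGF+ cells against 61.5, 5.47 and 48 CPM in AGF- cells, 666-fold lower (counting interval 119 to 26300). In bone marrow it had 10.8, 13.2 and 10.6 CPM in AGF+ cells against 0, 1.01 and 0.19 CPM in total DCs, a difference of 4.77 ± 0.96. The second AGF- library of lymph node held far less Gzma than the other 2. Gzmb (chromosome 14, 56258838 to 56262260, minus strand) had 0 CPM in all 3 lymph node AGF+ libraries against 13.4, 2.02 and 12.7 CPM in AGF- cells, at least 54.6-fold lower. In bone marrow AGF+ cells it had 93.2, 59.4 and 44.3 CPM against 13.9, 20 and 11 CPM in total DCs, a difference of 2.13 ± 0.44 (adjusted p = 0.0018). The interaction adjusted p was 2.22e-05 for Gzma and 0.000119 for Gzmb.

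Lax1, a membrane adaptor that dampens lymphocyte receptor signals, had 0.623, 1.79 and 0.642 CPM in lymph node AGF+ cells and 22.4, 25.3 and 35.6 CPM in AGF- cells. In bone marrow AGF+ cells it had 23.8, 26 and 28.8 CPM, against 0, 0.202 and 0 CPM in total DCs, a 394-fold difference (counting interval 70.4 to 15600). Its level was thus nearly the same in lymph node AGF- cells and bone marrow AGF+ cells, and low in the other 2 groups. Blk, a SRC-family kinase of B cells, had 0.156, 1.34 and 1.71 CPM in lymph node AGF+ cells against 42.5, 54 and 72.6 CPM in AGF- cells (-5.76 ± 0.41). Bone marrow levels were 103, 105 and 85.1 CPM in AGF+ cells against 7.17, 5.45 and 2.65 CPM in total DCs (4.27 ± 0.33), and the double difference was -10.03 ± 0.53. Ly6d, a surface marker of early B lineage and plasmacytoid precursors, had a lymph node difference of -4.87 ± 0.44 and a bone marrow difference of 5.60 ± 0.53.

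The promoters of the granzyme genes and of Prune2, a gene of the reverse pattern described next, are shown because a searched motif occurred in them and in no other of the 8 promoters that the table held for these 12 genes. They are the 250 bases before the RefSeq start on GRCm38.p6, in the direction of the gene, and capitals mark the motif letters. Gzma lies at chr13:113100982-113101231 and Gzmb at chr14:56262335-56262584, both on the minus strand, and Prune2 at chr19:16955868-16956117 on the plus strand.
Gzma: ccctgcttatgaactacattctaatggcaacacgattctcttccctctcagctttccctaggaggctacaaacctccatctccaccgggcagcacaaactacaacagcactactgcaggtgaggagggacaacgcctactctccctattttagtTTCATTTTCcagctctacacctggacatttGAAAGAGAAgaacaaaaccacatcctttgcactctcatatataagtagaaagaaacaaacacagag
Gzmb: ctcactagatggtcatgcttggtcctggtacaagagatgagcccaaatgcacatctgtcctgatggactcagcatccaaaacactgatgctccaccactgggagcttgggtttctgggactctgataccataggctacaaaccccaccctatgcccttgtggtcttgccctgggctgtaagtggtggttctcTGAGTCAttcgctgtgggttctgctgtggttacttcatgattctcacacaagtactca
Prune2: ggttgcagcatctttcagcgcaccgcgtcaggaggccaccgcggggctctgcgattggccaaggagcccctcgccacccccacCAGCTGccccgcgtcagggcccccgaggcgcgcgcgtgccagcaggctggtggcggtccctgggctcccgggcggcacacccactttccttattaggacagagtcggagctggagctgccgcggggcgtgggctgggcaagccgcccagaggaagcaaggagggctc
Gzma holds the interferon regulatory factor letters GAAANNGAA at 96 bases before the start, on the other strand, and again at 66 bases before it. Gzmb holds the AP-1 letters TGACTCA at 58 bases before the start, on the other strand. Prune2 holds the palindromic E-box CAGCTG at 167 bases before the start. The RefSeq table gave a promoter for 80 of the 111 and 268 of the 389 opposite genes. Both strands were searched, and the motifs searched can overlap each other. The interferon regulatory factor letters occurred in 3.75% of the 80 and 7.46% of the 268 promoters, against 6.55% of the 10765 promoters of genes tested and 7.16% of all 27025 promoters in the table. In the same order the shares for AP-1 were 7.5% and 2.61% against 3.07% and 4.43%, and for the E-box 13.8% and 10.1% against 11.6% and 12.8%. The ETS letters GGAAGT occurred in 21.2% and 23.5% against 24.1% and 20%, so both sets lay below the genes tested and above the whole table. The NF-kB letters GGGNNTTCC occurred in 7.5% and 7.09% against 6.37% and 4.88%. A match is only a match of letters.

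Opposite genes that were higher in lymph node AGF+ cells had smaller double differences and came from varied functions. Prune2 (chromosome 19, 16956118 to 17223932, plus strand), which encodes a large protein known from neurons, had 14.8, 21.9 and 18 CPM in lymph node AGF+ cells against 6.49, 9.11 and 8.28 CPM in AGF- cells (1.19 ± 0.25). The bone marrow values were 8.19, 4.33 and 7.91 CPM in AGF+ cells against 48.5, 69.4 and 62.5 CPM in total DCs (-3.14 ± 0.24). Cubn, cubilin, an endocytic receptor for vitamin B12 with intrinsic factor, had 28.3, 52.8 and 54.2 CPM in lymph node AGF+ cells against 5.37, 9.52 and 8.7 CPM in AGF- cells (2.51 ± 0.32). In bone marrow it had 8.19, 8.29 and 8.97 CPM in AGF+ cells against 19.6, 9.68 and 23.3 CPM in total DCs (-1.05 ± 0.33). The bone marrow groups of Cubn were close, the highest AGF+ library at 8.97 and the lowest total DC library at 9.68 CPM.

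Kcnt1, a sodium-activated potassium channel, was 18.5-fold higher in lymph node AGF+ cells (counting interval 6.08 to 91.9; 3 counts over the AGF- libraries) with a bone marrow difference of -1.23 ± 0.40. Bco2, an enzyme that cleaves carotenoids, had a double difference of 3.70 ± 0.42, and Cgnl1, a junctional adaptor also called paracingulin, 3.51 ± 0.44. Hist2h4, a replication-dependent histone gene, had 31.3, 75 and 32.3 CPM in lymph node AGF+ cells against 6.49, 12.3 and 4.24 CPM in AGF- cells, and a double difference of 4.78 ± 0.76. Histone H4 genes have near-identical copies, so its reads are uncertain. Exons of Bco2 and Cubn share 7.6% and 2.46% of their bases with genes on the other strand, and no source used here tells whether counting was by strand.

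**Figure D2:**
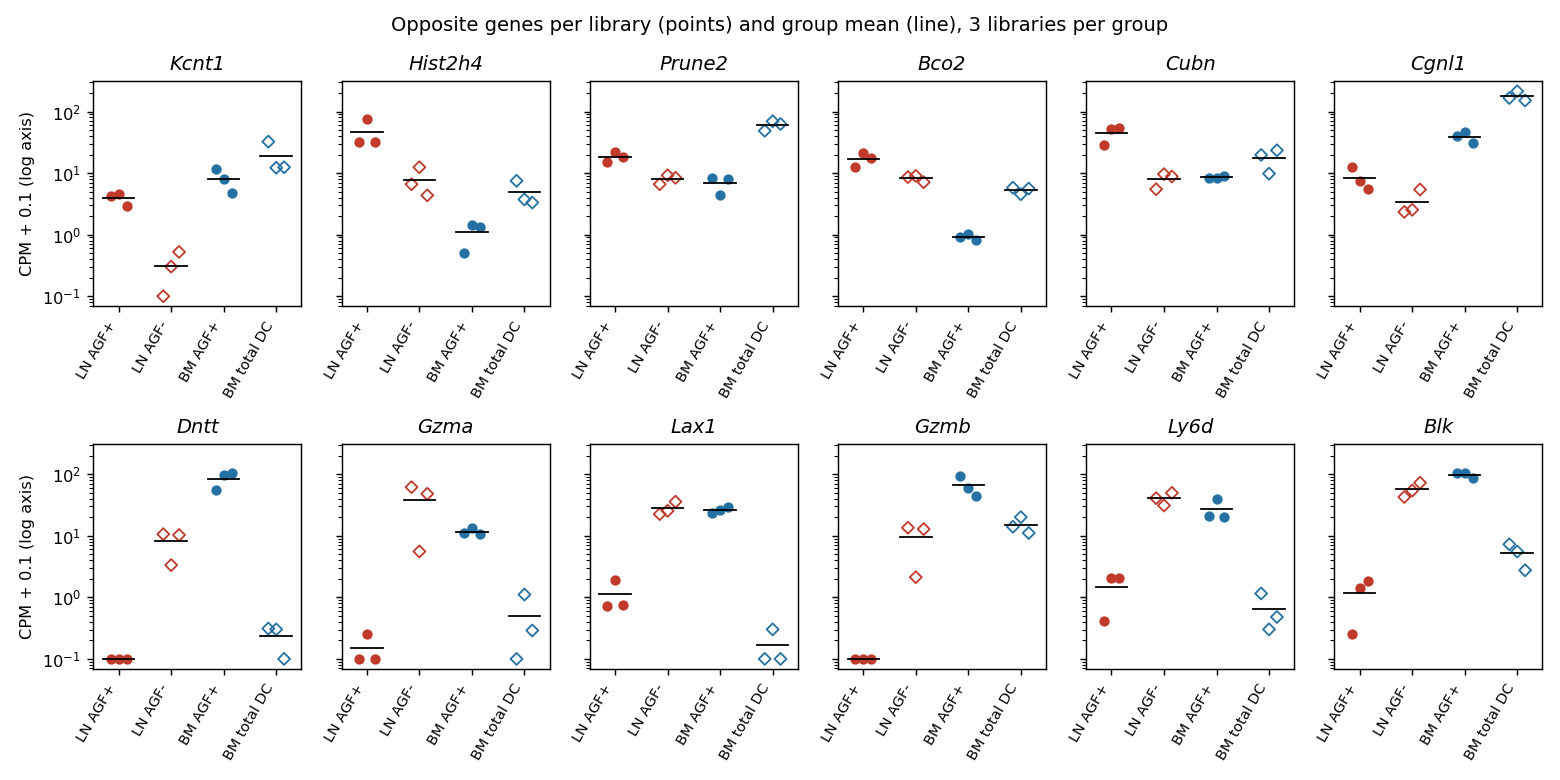
Levels of the 12 opposite genes in each library (points, CPM + 0.1 on a log axis) with the group mean (line), 3 libraries per group; filled circles are AGF+ cells, open diamonds the cells set against them, red lymph node and blue bone marrow. In the upper row AGF+ lies above in lymph node and below in bone marrow, and in the lower row the order is reversed; points at the lowest mark are 0 CPM.

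Lymphocyte and plasmacytoid DC genes followed this pattern. Both bone marrow gates took B220- cells, while the lymph node gate did not name B220. The part of this gate difference in the lists below was not tested. For double difference counts of lists from here on, the shares over all genes tested were 8.37% higher, 11.7% lower and 3.01% opposite. For list counts within lymph node, the shares were 8.73% higher and 11.5% lower in AGF+ cells. Within bone marrow the shares were 20.6% higher and 19.7% lower. Without the libraries numbered 2, 535 of 16731 genes tested had a higher and 1064 a lower double difference. Of 16 tested B cell genes 13 had a lower double difference, 8 of them opposite, and none a higher one, with a median of -5.12. Pax5, the B lineage identity factor, had 1.71, 4.47 and 5.78 CPM in lymph node AGF+ cells against 32, 95.5 and 80.2 CPM in AGF- cells, and 11.9, 14.3 and 19.2 CPM in bone marrow AGF+ cells against 0.633, 0.202 and 0.758 CPM in total DCs. Fcer2a, the low-affinity IgE receptor CD23, had a double difference of -8.27 ± 0.69, and Fcrla, an Fc receptor-like protein of B cells, -7.12 ± 0.58. The B cell genes did not move as 1 block in bone marrow, where 9 were higher and 2 lower in AGF+ cells. The chains of the B cell receptor complex differed. Cd79b averaged 43.1 CPM in lymph node AGF+ cells and 71.4 CPM in AGF- cells, and 109 CPM in bone marrow AGF+ cells and 20.5 CPM in total DCs. Cd79a averaged 2.58 CPM in lymph node AGF+ cells and 32.7 CPM in AGF- cells, but 0.773 CPM in bone marrow AGF+ cells and 0.208 CPM in total DCs. The 2 genes lower in bone marrow AGF+ cells were Bank1, a B cell scaffold protein, at 0 CPM against a mean of 6.28 CPM in total DCs, and Cd22, an inhibitory receptor, at 0.779 against 5.56 CPM. Cd79a, Cd79b, Bank1 and Cd22 were picked with their values in view. Summed over the 16 B cell genes, levels were 392 to 440 CPM in lymph node AGF+ cells and 749 to 1450 CPM in AGF- cells, and 433 to 491 CPM in bone marrow AGF+ cells and 180 to 239 CPM in total DCs.

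T and NK cell genes split in a like way. Of 18 tested, 10 had a lower double difference, 8 of them opposite, and none a higher one. In bone marrow 9 of the 18 were higher in AGF+ cells and 0 lower, with a median difference of 1.73. In lymph node 1 was higher and 16 were lower. Lck, the kinase of the T cell receptor, had 6.54, 4.62 and 9.2 CPM in lymph node AGF+ cells against 40.7, 14.6 and 52 CPM in AGF- cells, and 11.7, 14.1 and 20.4 CPM in bone marrow AGF+ cells against 0.422, 0.404 and 0.19 CPM in total DCs. Of the defining markers, Cd2, Cd3e, Bcl11b, Ncr1, Klrb1c and Klre1 were at or near 0 in both bone marrow populations, and Thy1 was not, at a mean of 267 CPM in AGF+ cells and 44.7 CPM in total DCs. Cd3e, a chain of the T cell receptor complex, averaged 0.239 CPM in bone marrow AGF+ cells and 0.275 CPM in total DCs, and Ncr1, the NK receptor NKp46, was at 0 in both. In lymph node AGF+ and AGF- cells Cd3e averaged 2.77 and 28.8 CPM, and Ncr1 was at 0 and 28.1 CPM. These markers were picked with their values in view. The summed level of the 20 listed T and NK genes was 253 to 450 CPM in lymph node AGF+ cells and 222 to 787 CPM in AGF- cells, which overlap, and 812 to 862 CPM in bone marrow AGF+ cells and 97.6 to 178 CPM in total DCs. The part of lymphocytes in the lymph node result was not tested.

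Of 10 tested genes of V(D)J recombination and the early B lineage 7 had a lower double difference, 3 of them opposite, and 6 had one without the libraries numbered 2. Rag1, the recombinase that starts V(D)J cutting, had 3.28, 6.03 and 5.28 CPM in bone marrow AGF+ cells and 0 counts in total DCs, at least 24.5-fold higher. In lymph node its 3 counts in AGF+ and 7 counts in AGF- libraries give no detectable difference (AGF- over AGF+ ratio 2.94, counting interval 0.672 to 17.6). Bach2, a repressor that holds lymphocytes in an undifferentiated state, had a lymph node difference of -0.59 ± 0.17 and a bone marrow difference of 1.58 ± 0.20. Antigen receptor gene segments, counted together, took 0.0209 to 0.0254% of counts in lymph node AGF+ cells and 0.126 to 0.196% in AGF- cells. They took 0.0612 to 0.0769% in bone marrow AGF+ cells and 0.00523 to 0.0111% in total DCs.

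Among 15 tested plasmacytoid DC markers 14 had a lower double difference, 7 of them opposite, and none a higher one, with a median of -2.35. Siglech, a plasmacytoid DC lectin, had 7.16, 10.9 and 7.71 CPM in lymph node AGF+ cells against 169, 36.6 and 147 CPM in AGF- cells. Bone marrow gave 83.3, 80.5 and 80.5 CPM in AGF+ cells against 9.49, 11.7 and 2.46 CPM in total DCs, and the double difference was -7.14 ± 0.71. Pacsin1, an endocytosis protein of neurons and plasmacytoid DCs, had a double difference of -5.08 ± 0.46. Runx2, a RUNX factor for plasmacytoid DC exit from marrow, behaved differently. Its lymph node difference was 0.04 ± 0.21 while its bone marrow difference was 2.57 ± 0.22. Tcf4, the E protein that defines the plasmacytoid lineage, had a lymph node difference of -0.31 ± 0.12 that did not pass the test and a bone marrow difference of 1.09 ± 0.12. Bcl11a, a zinc finger factor of B cells and plasmacytoid DCs, had 109, 114 and 96.3 CPM in lymph node AGF+ cells against 212, 182 and 213 CPM in AGF- cells, and 213, 297 and 320 CPM in bone marrow AGF+ cells against 48.5, 56.7 and 18.8 CPM in total DCs. Bcl11a is not in the plasmacytoid list but was taken from 20 tested DC lineage transcription factors. Of these, 2 had a higher double difference, 3 a lower one and 15 no interaction call. The 2 higher ones were Zeb2 (1.07 ± 0.21) and Irf4 (0.83 ± 0.21). Without the libraries numbered 2, 14 plasmacytoid markers, 11 B cell genes and 11 T and NK genes had lower double differences.

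Most cell cycle genes were lower in lymph node AGF+ cells (20 of 26) and higher in bone marrow AGF+ cells (24 of 26). Of the 26 tested, 25 had a lower double difference and none a higher one. Of these 18 were opposite, 6 were called in bone marrow alone and 1 in lymph node alone. The median lymph node difference was -0.99 and the median bone marrow difference 1.09. Top2a, the topoisomerase of dividing cells, had 15.9, 24 and 13.7 CPM in lymph node AGF+ cells against 49.2, 54.2 and 60.9 CPM in AGF- cells. Bone marrow levels were 400, 492 and 793 CPM in AGF+ cells against 175, 238 and 144 CPM in total DCs. The groups did not overlap in either tissue, and all bone marrow libraries lay above all lymph node ones.

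Cenpf, a kinetochore protein, had 1.4, 1.34 and 1.93 CPM in lymph node AGF+ cells against 6.71, 7.89 and 11 CPM in AGF- cells, and 69.4, 74.2 and 122 CPM in bone marrow AGF+ cells against 27.2, 39.1 and 26.7 CPM in total DCs. Its double difference, -3.98 ± 0.43, had the largest size in the list. Rrm2, a subunit of ribonucleotide reductase, had a double difference of -3.67 ± 0.42 and Ccnb2, a mitotic cyclin, -2.88 ± 0.35. Ccne1, cyclin E1, was the member without a call, with values of -1.43 in lymph node and -0.57 in bone marrow. It was chosen after its values were seen. Summed over the list, levels were 357 to 428 CPM in lymph node AGF+ cells and 731 to 803 CPM in AGF- cells, and 2500 to 4410 CPM in bone marrow AGF+ cells and 1290 to 1850 CPM in total DCs. The list had 22 lower double differences, 8 of them opposite, without the libraries numbered 2.

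**Figure D3:**
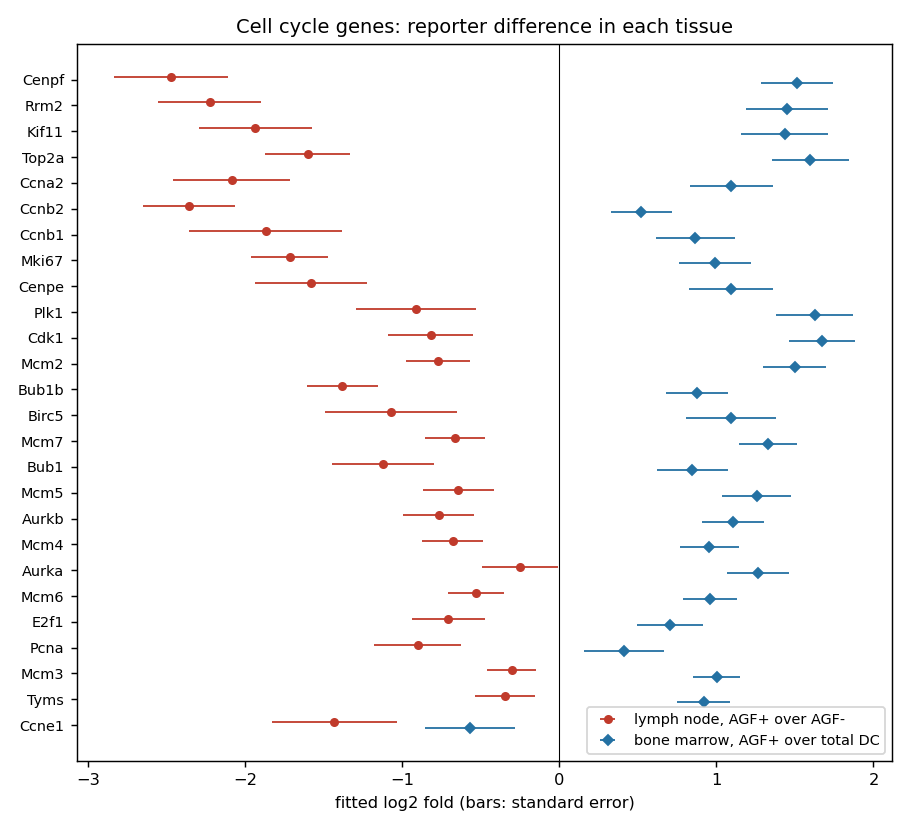
Fitted log2 fold of AGF+ over AGF- cells in lymph node (red circles) and of AGF+ cells over total DCs in bone marrow (blue diamonds) for the 26 cell cycle genes, with bars of 1 SE, sorted by double difference. All lymph node points lie below 0, and all bone marrow points except that of Ccne1 lie above 0.

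Interferon response genes leaned the same way at smaller size. Of 24 tested, 11 had a lower double difference and none a higher one, 2 of them opposite, with a median of -1.29. Of all genes tested 11.7% had a lower one. Ifi27l2a, an interferon-induced mitochondrial protein, had 6.38, 5.37 and 6.42 CPM in lymph node AGF+ cells against 33.1, 49.6 and 26.3 CPM in AGF- cells. In bone marrow it had 25.4, 41.6 and 23.7 CPM in AGF+ cells against 19, 15.3 and 7.77 CPM in total DCs. Rsad2, the antiviral enzyme viperin, was lower in lymph node AGF+ cells (-0.93 ± 0.21), while its bone marrow difference of 0.52 ± 0.21 did not pass the test. The interaction call of Rsad2 was lost without the libraries numbered 2. Without them 2 of the 24 members had a lower double difference, a share near the 1064 of 16731 genes tested. With the replicate number as a block within tissue 17 had one, 8 of them opposite.

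Innate sensors had more higher than lower double differences. Of 23 tested, 11 had a higher double difference and 1 a lower one, with a median of 0.81, and 7 were called in bone marrow alone. Of all genes tested 8.37% were higher and 11.7% lower. Within lymph node 2 sensors were higher and 7 lower in AGF+ cells, and within bone marrow 3 were higher and 15 lower. The list medians were -0.41 in lymph node and -1.82 in bone marrow. Tlr4, the receptor for bacterial lipopolysaccharide, had 4.67, 11.9 and 7.49 CPM in lymph node AGF+ cells and 8.28, 13 and 11.7 CPM in AGF- cells, which overlap. Its bone marrow libraries had 6.76, 9.04 and 7.91 CPM in AGF+ cells against 64.1, 94.6 and 141 CPM in total DCs (-3.65 ± 0.33). Tlr6, which pairs with TLR2 to sense bacterial lipopeptides, had a bone marrow difference of -2.01 ± 0.20 and a lymph node difference of -0.08 ± 0.16.

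Tlr5 and Tlr7 were opposite genes of opposite sign. Tlr5, the flagellin receptor, had 65.4, 73.5 and 75.1 CPM in lymph node AGF+ cells against 35.6, 52 and 43.9 CPM in AGF- cells, and 3.48, 4.71 and 4.57 CPM in bone marrow AGF+ cells against 12.7, 8.07 and 9.1 CPM in total DCs. Tlr7, the endosomal sensor of single-stranded RNA, had 3.27, 6.86 and 4.28 CPM in lymph node AGF+ cells against 37.6, 30.8 and 34.6 CPM in AGF- cells. Bone marrow gave 23.6, 36.4 and 32.7 CPM in AGF+ cells against 4.22, 2.02 and 0.948 CPM in total DCs, and its double difference of -6.52 ± 0.49 was the single lower one in the list. Without the libraries numbered 2 the list had 7 higher and 1 lower.

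Costimulatory and checkpoint genes likewise had more higher than lower double differences. Of 18 tested, 8 had a higher double difference and 1 a lower one, with a median of 0.74, against 8.37% and 11.7% of all genes tested. Cd86, the B7-2 ligand for CD28, had 137, 154 and 157 CPM in lymph node AGF+ cells against 88.6, 101 and 86 CPM in AGF- cells, and 405, 477 and 590 CPM in bone marrow AGF+ cells against 649, 600 and 828 CPM in total DCs. Nectin2, a ligand of the NK and T cell receptors DNAM-1 and TIGIT, was opposite in the same sense (0.83 ± 0.23 in lymph node and -0.98 ± 0.17 in bone marrow). Tnfsf4, the OX40 ligand, was higher in lymph node AGF+ cells (1.49 ± 0.26), with a bone marrow difference of -0.11 ± 0.17. Icosl, the ligand of ICOS, was the exception. AGF+ cells held more of it in both tissues, with 1433, 905 and 1165 CPM against 440, 446 and 323 CPM in AGF- cells of lymph node, and 516, 502 and 503 CPM against 46.6, 56.5 and 42.1 CPM in total DCs of bone marrow. The bone marrow difference (3.39 ± 0.19) exceeded the lymph node one (1.53 ± 0.17). Without the libraries numbered 2 the list had 4 higher and 1 lower double differences.

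MHC class II presentation genes were divided. Of 16 tested, 4 had a higher and 8 a lower double difference, and without the libraries numbered 2 these were 1 and 3. H2-Eb2, a beta chain gene of the E isotype, had 192, 144 and 156 CPM in lymph node AGF+ cells and 146, 196 and 155 CPM in AGF- cells, which overlap. In bone marrow it had 117, 89.9 and 110 CPM in AGF+ cells against 32.5, 15.3 and 27.7 CPM in total DCs. H2-Ob, a chain of the modulator H2-O that restrains peptide loading, was opposite (-0.81 ± 0.17 in lymph node and 0.71 ± 0.17 in bone marrow). Cd74, the invariant chain, was lower in lymph node AGF+ cells (-0.66 ± 0.12) with a bone marrow difference of 0.11 ± 0.12.

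The 508 genes called in lymph node alone held 207 higher and 301 lower in AGF+ cells. In 26 of the 301 and 5 of the 207 both bone marrow groups averaged under 1 CPM. Among the largest rises, Fgf1, acidic fibroblast growth factor, had 18.1, 27.1 and 24.8 CPM in lymph node AGF+ cells against 2.69, 5.06 and 4.24 CPM in AGF- cells. Its bone marrow levels overlapped, at 9.22, 4.9 and 5.45 CPM in AGF+ cells and 12.4, 6.66 and 4.17 CPM in total DCs. Hmcn2, hemicentin 2 of the extracellular matrix, had 31.4, 21.3 and 22.9 CPM in lymph node AGF+ cells against 3.36, 3.64 and 2.76 CPM in AGF- cells, with a bone marrow difference of 0.17 ± 0.34 (95% interval -0.55 to 0.90). Rbfox2, a splicing regulator, had a lymph node difference of 1.54 ± 0.29. Its bone marrow difference of -0.65 ± 0.27 (95% interval -1.21 to -0.08) did not pass the test, although its bone marrow libraries did not overlap. Fam198a was low in lymph node, at 2.33, 0.745 and 1.28 CPM in AGF+ cells and 0.224, 0.607 and 0 CPM in AGF- cells. The adjusted p for the double difference of Fam198a was 0.0429, and 0.0534 with the replicate number as a block within tissue. In limma voom it was 0.0993, and it ranged up to 0.16 with a lymph node library left out.

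Among the falls in lymph node alone, Ly6a, the surface antigen SCA-1, had 0, 2.98 and 0.642 CPM in lymph node AGF+ cells against 35.1, 36.2 and 42.4 CPM in AGF- cells. The bone marrow values were 44.6, 92.5 and 48 CPM in AGF+ cells and 33.8, 49.4 and 13.3 CPM in total DCs, which overlap. Nkg7, a granule protein of cytotoxic lymphocytes, had 0.623, 0.149 and 0.428 CPM in lymph node AGF+ cells against 43.4, 10.5 and 53.1 CPM in AGF- cells. Abi3bp, an extracellular matrix protein, had 1.4, 2.09 and 2.57 CPM in lymph node AGF+ cells against 29.8, 3.85 and 46 CPM in AGF- cells, while bone marrow held 459, 340 and 314 CPM in AGF+ cells and 280, 212 and 188 CPM in total DCs. The bone marrow difference of Abi3bp was 0.71 ± 0.42 (95% interval -0.18 to 1.61). Slco4a1, an organic anion transporter, had a lymph node difference of -3.93 ± 0.63.

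Genes called in bone marrow alone were the largest class, 1040 of them higher in AGF+ cells and 871 lower. Those lower included genes known from myeloid cells and the liver. Asgr2, a chain of the asialoglycoprotein receptor, had 7.37, 4.52 and 2.81 CPM in bone marrow AGF+ cells against 240, 481 and 370 CPM in total DCs (-6.23 ± 0.33). In lymph node it had 1.56, 1.19 and 1.93 CPM in AGF+ cells and 1.79, 3.85 and 2.33 CPM in AGF- cells (-0.81 ± 0.52, 95% interval -1.92 to 0.30). Clec5a, an activating myeloid lectin, had a bone marrow difference of -3.83 ± 0.39 and a lymph node difference of 0.18 ± 0.26. Rnase4, a secreted ribonuclease, had -4.54 ± 0.27 and 0.68 ± 0.26, and Abcc3, an organic anion exporter, -3.23 ± 0.28 and 0.61 ± 0.23, in the same order of tissues. Exons of Rnase4 share 13.4% of their bases with Ang.

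Genes higher in bone marrow AGF+ cells and not called in lymph node included growth factor receptors. Nsg2, a vesicle protein of neurons, was 224-fold higher in bone marrow AGF+ cells (counting interval 76.3 to 1090). Khdc1a, an RNA-binding KH domain protein, had 74.3, 93.7 and 127 CPM in bone marrow AGF+ cells against 0.422, 0.404 and 0.379 CPM in total DCs, with a lymph node difference of -0.36 ± 0.44. Kdr, the VEGF receptor 2, had 49, 99.9 and 80.2 CPM in bone marrow AGF+ cells against 2.11, 3.03 and 1.14 CPM in total DCs, while its lymph node levels overlapped. Flt3, the growth factor receptor of DC progenitors, had 310, 292 and 334 CPM in bone marrow AGF+ cells against 54.4, 30.7 and 20.8 CPM in total DCs. In lymph node Flt3 had 601, 474 and 526 CPM in AGF+ cells and 481, 368 and 339 CPM in AGF- cells, a difference of 0.43 ± 0.23 that did not pass the test.

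**Figure D4:**
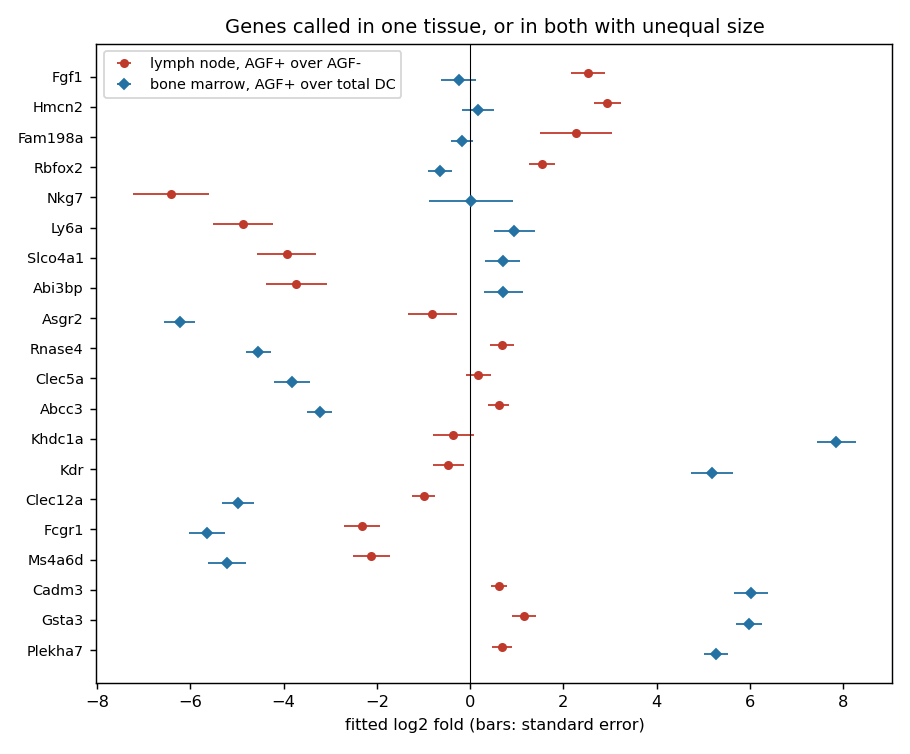
Fitted log2 fold of AGF+ over AGF- cells in lymph node (red circles) and of AGF+ cells over total DCs in bone marrow (blue diamonds), with bars of 1 SE, for the genes named in the lymph node only, bone marrow only and same direction classes, top to bottom. Nsg2 is not drawn because its total DC libraries hold 3 counts in all; Nkg7 has a lymph node difference of -6.41 and a bone marrow difference of 0.02.

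Aire itself belonged to the 299 genes that changed in the same direction by unequal amounts. It had 130, 96.8 and 109 CPM in lymph node AGF+ cells against 15, 14.2 and 14 CPM in AGF- cells (2.96 ± 0.18). Its bone marrow libraries had 116, 107 and 78.2 CPM in AGF+ cells against 1.27, 0.807 and 0.948 CPM in total DCs (6.61 ± 0.25). AGF+ levels overlapped between the tissues, while AGF- cells of lymph node held more Aire than total DCs of bone marrow in every library. The double difference was -3.65 ± 0.33 (adjusted p = 5.21e-06). Exons of Aire share 1.75% of their bases with Dnmt3l on the other strand.

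Cadm3, a nectin-like adhesion molecule, had 165, 135 and 142 CPM in lymph node AGF+ cells against 88.8, 107 and 91 CPM in AGF- cells, and 24.2, 22.2 and 23.2 CPM in bone marrow AGF+ cells against 0.844, 0.202 and 0 CPM in total DCs. Gsta3, a glutathione transferase, and Plekha7, a junction protein, likewise rose in both tissues, with bone marrow differences of 5.98 ± 0.27 and 5.27 ± 0.25 and lymph node differences of 1.16 ± 0.26 and 0.68 ± 0.21. Falls in both tissues that were deeper in bone marrow included Clec12a, an inhibitory myeloid lectin. It had 33.5, 52.9 and 48.8 CPM in lymph node AGF+ cells against 75.9, 87.9 and 106 CPM in AGF- cells, and 3.89, 1.7 and 1.76 CPM in bone marrow AGF+ cells against 48.5, 94.2 and 86.8 CPM in total DCs. Fcgr1, the high-affinity IgG receptor, and Ms4a6d, a membrane protein of macrophages, had bone marrow differences of -5.64 ± 0.38 and -5.20 ± 0.41 and lymph node differences of -2.32 ± 0.38 and -2.12 ± 0.39.

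Most monocyte and macrophage markers fell in AGF+ cells of both tissues. Of 20 tested, 17 were lower in lymph node AGF+ cells and 14 lower and 1 higher in bone marrow AGF+ cells, and 10 had a higher and 3 a lower double difference. Their summed level was 499 to 630 CPM in lymph node AGF+ cells and 2570 to 2670 CPM in AGF- cells, and 319 to 393 CPM in bone marrow AGF+ cells and 1330 to 1870 CPM in total DCs. Plac8, a gene of monocytes and plasmacytoid DCs, was the opposite member, with 24.8, 17.3 and 19.9 CPM in lymph node AGF+ cells against 174, 140 and 156 CPM in AGF- cells, and 117, 158 and 166 CPM in bone marrow AGF+ cells against 35.2, 9.48 and 7.58 CPM in total DCs. The part of monocytes in lymph node AGF- cells or bone marrow total DCs was not tested. The list had 2 higher and 2 lower double differences without the libraries numbered 2.

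Most conventional DC markers of both subsets were lower in lymph node AGF+ cells, 12 of 16 for cDC1 and 11 of 16 for cDC2. Of 16 cDC2 markers 7 had a higher and 2 a lower double difference, and without the libraries numbered 2 these were 5 and 2. Itgam, which encodes CD11b, had 6.35, 7.54 and 4.57 CPM in bone marrow AGF+ cells against 80.4, 146 and 113 CPM in total DCs, and a lymph node difference of -0.58 ± 0.25 that did not pass the test. The bone marrow AGF+ gate itself selected against CD11b. Exons of Itgam share 68.7% of their bases with Gm49368 on the same strand. Of 16 cDC1 markers 1 had a higher and 5 a lower double difference, and 10 had no interaction call. In bone marrow 2 of the 16 cDC1 markers were higher and 4 lower in AGF+ cells, against 20.6% and 19.7% of all genes tested. The 1 opposite cDC1 marker is given next. Gcsam, a signalling adaptor of germinal centre B cells and cDC1, was lower in lymph node AGF+ cells (-2.67 ± 0.57) and at least 45.6-fold higher in bone marrow AGF+ cells. Of 27 tested mature CCR7 DC genes none had a higher and 3 a lower double difference, a share near the 11.7% of all genes tested, and 1 had a lower one without the libraries numbered 2. With the replicate number as a block within tissue 1 was higher and 11 lower.

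**Figure D5:**
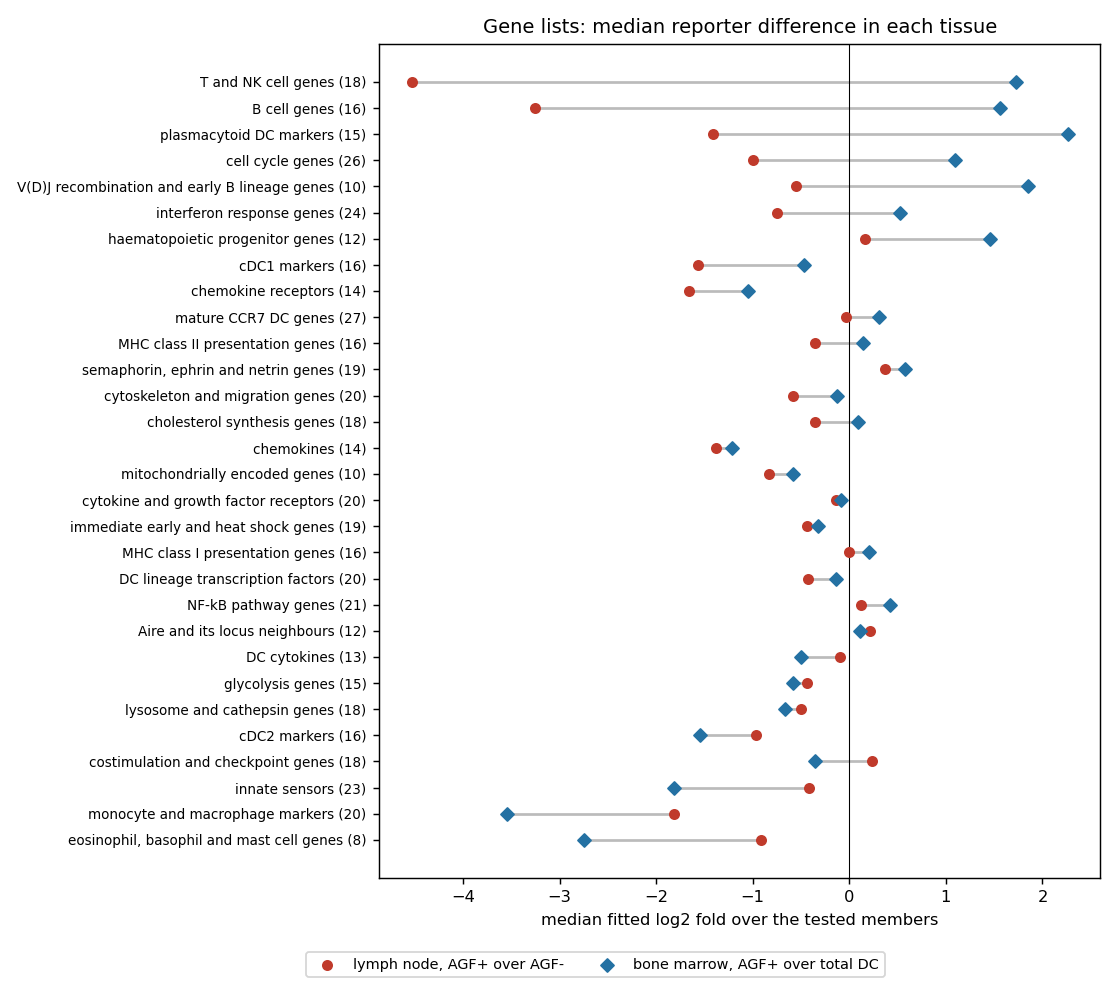
Median fitted log2 fold over the tested members of each gene list (number in brackets) in lymph node (red circles, AGF+ over AGF-) and bone marrow (blue diamonds, AGF+ over total DC). T and NK cell, B cell, plasmacytoid DC and cell cycle genes have medians of opposite sign in the tissues, with lymph node below 0. V(D)J and early B lineage, interferon response, MHC class I and II, cholesterol synthesis and mature CCR7 DC genes have the same signs, some close to 0. Monocyte and macrophage markers are below 0 in both.

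The lymph node side of the pattern could be compared with 6 libraries that the interaction did not use, AGF+ and AGF- DCs of lymph nodes with the genotype AGF-KI/-, titled AireKO. The 21 libraries include no AireKO total DCs, so the bone marrow side has no such comparison. In those libraries Aire stood at 22.8, 26.6 and 26.3 CPM in AGF+ cells and 10.5, 14.2 and 13.3 CPM in AGF- cells, so reads were still counted to Aire. Among 17265 genes tested 2042 were higher in AireKO AGF+ cells (11.8%) and 2276 lower (13.2%). Of the 389 opposite genes lower in lymph node AGF+ cells 315 were also lower in AireKO (81%), and of the 111 that were higher 78 were also higher (70.3%). None of the 500 was called in the other direction. Of the genes called in lymph node alone, 166 of 207 rose (80.2%) and 256 of 301 fell (85%) in AireKO too. Of the genes called in bone marrow alone, 102 of 870 with a higher double difference (11.7%) and 186 of 1040 with a lower one (17.9%) had an AireKO lymph node call in the direction of their KI/+ lymph node value. Gzmb was at 0, 0 and 0 CPM in AireKO AGF+ cells against 34.3, 3.47 and 27.5 CPM in AGF- cells, and Dntt at 0.336, 0 and 0 CPM against 12.6, 3.29 and 5.66 CPM. Cubn stood at 43.5, 45.7 and 94.4 CPM in AireKO AGF+ cells against 6.93, 7.97 and 12.3 CPM in AGF- cells.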

How the data were processed

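Gene expression was measured by paired-end 150-bp RNA sequencing of 1 ng of RNA per library (Ovation SoLo), per the labels. The tools listed in the submitters' processing notes are STAR 2.7.3a for a genome of build mm10, with HTSeq 0.11.2, fastp 0.20.0, edgeR 3.38.1, Picard 2.21.1 and SAMtools 1.9. Which annotation release was counted, and how strand and multi-mapping reads were treated, was not given in those sources. The authors deposited raw read counts per gene, 55471 in number. No GENCODE vM21 symbol was matched for 327 of them, which hold 0.0139% of the reads. A deposited normalized table was not used. Reads of overlapping genes and near-identical copies may be split or lost.

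From the counts, 1 fit of the 12 KI/+ libraries (edgeR 4.0.16 in R 4.3.3, TMM, expression filter by group, quasi-likelihood F test, Benjamini-Hochberg adjusted p under 0.05) gave the lymph node and bone marrow differences and the interaction. CPM use TMM effective library sizes, with factors of 0.894 to 1.11. The AireKO comparison came from a fit of all 21 libraries, and AireKO CPM are on that scale. The code was tested on simulated data with known double differences. It recovered 84 of 100 genes with a 4-fold one but 26 of 100 with a 2-fold one, so interactions of that size can be missed. Totals of 4263663 to 6055097 counts are shallow, so low genes are imprecise. Genes were classed as opposite, lymph node only, bone marrow only or same direction by which tissue differences also passed the threshold.

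The members, the 35 gene lists and the naming rule were chosen with earlier results of these data known. Named genes are the largest double differences per class and direction (6 opposite, 4 per tissue-only class, 3 same direction) among genes with a double difference of at least 1 (log2), a mean log2 CPM of at least 3, at least 1 CPM in each tissue, no overlap of replicates where called and a log2 difference under 1 in the other tissue for tissue-only genes, without predicted genes, pseudogenes, receptor segments and sex-linked markers. Some items that the rule names are not reported here. Aire and up to 4 members per described list with the smallest adjusted p were added. Lists are described by counts and medians with no test. Promoters (RefSeq, GRCm38.p6) start 250 bases before the first listed start, and coordinates are from GENCODE vM21 on GRCm38. Figures used Python 3.11.15, pandas 2.3.3 and matplotlib 3.10.9.

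Replicates are independent biological samples per the labels. Deviations from group means of same-numbered libraries correlated at 0.21 to 0.523 in lymph node and 0.481 to 0.578 in bone marrow. The numbers were taken as pairs within a tissue from these correlations and not from the labels. The main fit did not use these pairs, so its counts, errors and adjusted p-values are unpaired. The replicate block within tissue used them. Across tissues 2 of 4 group pairs exceeded 0.1 for every number. Alternatives were DESeq2 1.42.0 size factors and Wald test, library size alone, no filter, at least 10 counts in at least 3 libraries, limma 3.58.1 voom, all libraries in the fit, replicate blocks, adjusted p under 0.01, the libraries numbered 2 left out and each library left out. The list counts under 3 of these were added after the data were examined.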

Additional observations from a re-analysis of the deposited data

Results flagged for a closer look

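The AGF+ difference itself differed between lymph node and bone marrow, by the interaction test, in 3345 genes, and it had opposite directions in 500. Each of the 12 named opposite genes was picked out by the same test. They were named only if replicates did not overlap in either tissue, so their lack of overlap is a condition of the choice. Among genes lower in AGF+ cells in lymph node and higher in bone marrow, the interaction adjusted p (edgeR quasi-likelihood test) was 8.42e-07 for Dntt, 2.22e-05 for Gzma, 1.88e-08 for Lax1, 0.000119 for Gzmb, 4.39e-07 for Ly6d and 2.96e-08 for Blk. For genes of the reverse pattern it was 0.00088 for Kcnt1, 0.000449 for Hist2h4, 1.92e-06 for Prune2, 3.38e-05 for Bco2, 8.65e-05 for Cubn and 6.64e-05 for Cgnl1. The bone marrow populations passed different gates, so tissue, reporter and gate cannot be told apart in these values.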

How the results depend on the processing

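Reversal was checked only for the 138 named genes, and 0 of them reversed in any alternative. Of these 138 genes 106 kept their interaction call in all 23 alternatives and 32 lost it in at least 1. Among the 32 were 27 without the libraries numbered 2 and 17 at an adjusted p under 0.01. Counts were labelled only as same (155) or moved (23), so they could not show a reversal. Some list medians near 0 changed sign without the libraries numbered 2. The median double difference went from -0.13 to 0.02 for DC lineage transcription factors and from -0.13 to 0.02 for the NF-kB pathway. With the replicate number as a block within tissue, the paired fit, 4856 genes had an interaction call, 804 were opposite and 679 changed in the same direction. With a block across tissues 489 changed in the same direction. Fam198a lost its call under the within-tissue block and no other named gene did. At an adjusted p under 0.01 the counts were 1829 for the interaction, 1817 lymph node AGF+ calls, 199 opposite genes, 289 lymph node only genes, 1164 bone marrow only genes, 83 same direction genes and 2636 AireKO lymph node AGF+ calls. With libraries left out, the counts ranged from 1599 to 3766 for the interaction, 1854 to 3910 for lymph node, 4099 to 7102 for bone marrow, 233 to 536 opposite, 287 to 560 lymph node only, 942 to 2128 bone marrow only, 74 to 404 same direction and 2758 to 4555 for AireKO lymph node. Every lowest value came without the libraries numbered 2, which leaves 2 libraries per group. Library size alone gave 1238 higher and 2051 lower double differences. No scaling moved the median double difference by more than 0.1. Genes under about 1 CPM rest on few counts at this depth.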

Other observations

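Among 8 tested eosinophil, basophil and mast cell genes, 3 were opposite. Siglecf, an eosinophil lectin, had 8.1, 7.6 and 9.63 CPM in lymph node AGF+ cells against 2.01, 2.43 and 1.27 CPM in AGF- cells, and 2.46, 1.7 and 1.41 CPM in bone marrow AGF+ cells against 8.02, 8.67 and 8.34 CPM in total DCs. Prg2, eosinophil major basic protein, was opposite in the same sense (3.58 ± 0.75 in lymph node and -1.57 ± 0.39 in bone marrow), although its bone marrow libraries overlapped, the highest of AGF+ cells at 44.0 and the lowest of total DCs at 40.4 CPM. Il5ra, the interleukin-5 receptor, was opposite in the other sense (-3.62 ± 0.50 and 2.55 ± 0.36). The summed level of the 14 listed genes was 17.4 to 20.7 CPM in lymph node AGF+ cells and 14.2 to 17 CPM in AGF- cells, against 24.6 to 78.6 CPM in bone marrow AGF+ cells and 126 to 260 CPM in total DCs.

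The chemokine, chemokine receptor and DC cytokine lists each held 1 opposite member. Of 14 tested chemokines 1 had a higher and 2 a lower double difference, and of 14 tested chemokine receptors 0 and 3. These shares were near the 20.1% of all genes tested. Of 13 tested DC cytokines 3 had a higher and 3 a lower one. The members below were picked from these lists. Cxcr5, the receptor that guides cells to follicles, had 9.81, 3.73 and 5.57 CPM in lymph node AGF+ cells against 12.3, 26.5 and 14.2 CPM in AGF- cells, and 36.9, 38.2 and 35.4 CPM in bone marrow AGF+ cells against 3.59, 3.63 and 3.41 CPM in total DCs. Cxcl10, an interferon-induced chemokine, had a double difference of -4.33 ± 0.63. Il12a, the p35 subunit of interleukin-12, was 180-fold higher in bone marrow AGF+ cells (counting interval 31.9 to 7150), while its lymph node levels of 0.778, 0.894 and 1.07 CPM in AGF+ cells and 1.57, 1.42 and 0.849 CPM in AGF- cells overlapped. Of the lists with a share of calls near or below the 20.1% of all genes, MHC class I presentation had 0 higher and 2 lower of 16 tested, cholesterol synthesis 0 and 2 of 18, and the NF-kB pathway 0 and 4 of 21. Without the libraries numbered 2 their lower counts were 0, 1 and 0. With the replicate number as a block within tissue they had 2 higher and 5 lower, 0 and 5, and 2 and 7.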
